A study of Homo sapiens with 4 samples.

Results

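A set of 193 circular RNAs (circRNAs) with higher levels in HepG2 cells kept without glucose was described across 4 libraries. HepG2 is an established human liver cancer cell line, labelled here with the genotype WT, and no agent other than the glucose-free condition is named in the labels. There were 2 libraries from cells labelled glucose free for 24 h and 2 libraries from cells labelled normal. The members are circRNAs listed under an identifier of circBase, a public circRNA database, and they were chosen on the measured values themselves. Each had reads in all 4 libraries and a mean level of at least 100 reads per 1000000 circRNA reads of the library (CPM). In each, both glucose-free libraries lay above both normal libraries, and the glucose-free mean was at least 1.5 times the normal mean. A further 9 identifiers were left out of the set by name. The members were 193 of the 11666 circRNAs in the table, and 193 of the 1445 circBase circRNAs that met the conditions on reads and mean level and were not left out (13.4%). Because this choice used the contrast between the groups in all 4 libraries, no test below is independent of it, and the differences are given as descriptions.

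A circRNA forms when the splicing machinery joins a splice donor back to an acceptor that lies upstream in the same precursor RNA, which closes the exons between them into a ring. They lack free ends, so exonucleases such as RNase R digest linear RNA and leave them, and many persist in cells longer than the linear RNAs of their host genes. Some bind microRNAs or proteins, and for most no function is known. In liver cancer cells they have been studied in growth and lipid metabolism, and the title of this study names a circRNA of the gene EPB41 under energy stress. The table lists circRNAs by identifier without host genes or positions, and the reference tables used here hold no circBase identifier. Host genes, positions and sequences are therefore not given, the EPB41 circRNA was not matched to a member, and the cell line was not checked against marker genes.

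Glucose-free replicates 1 and 2 held 102420 and 58776 circRNA reads, and normal replicates 1 and 2 held 133083 and 166071. Linear RNA had been digested before sequencing. A level is a count divided by the circRNA reads of its library, so it is relative to them. In such bulk libraries a change per cell and a change in the cells sampled cannot be told apart. No label says that the replicates are separate cultures, so any spread between them may be technical. The counts of glucose-free replicate 2 and normal replicate 1, which belong to different groups, agree within sampling noise over the 1644 circRNAs that met the conditions on reads and mean level, with or without a circBase identifier. The chi-square of that pair was 1487.4 on 1643 degrees of freedom, 0.905 per degree of freedom, against 2.27 for the glucose-free pair and 2.45 for the normal pair. Whether either of these libraries carries the wrong label, or 1 library stands under both names, was not tested, and each value between the groups rests on the labels as given. Counts of members are therefore also given with each of these libraries left out.

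The 193 members together held a larger share of the circRNA reads without glucose than in normal cells. Their share was 10.4% in glucose-free replicate 1 (95% exact binomial interval 10.2% to 10.6%) and 8.19% in glucose-free replicate 2 (7.96% to 8.41%). It was 5.61% in normal replicate 1 (5.49% to 5.74%) and 4.36% in normal replicate 2 (4.26% to 4.46%). The intervals cover counting error only. The group means were 9.31% ± 1.59 without glucose and 4.99% ± 0.884 in normal cells (SD, n = 2 each), a difference of 4.32 percentage points that the choice of members fixes in sign. The replicates of each group also lay outside each other's intervals. The difference was 3.20 percentage points without glucose-free replicate 1 and 5.44 without glucose-free replicate 2, and it was 2.99 without the 5 most abundant members.

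**Figure D1:**
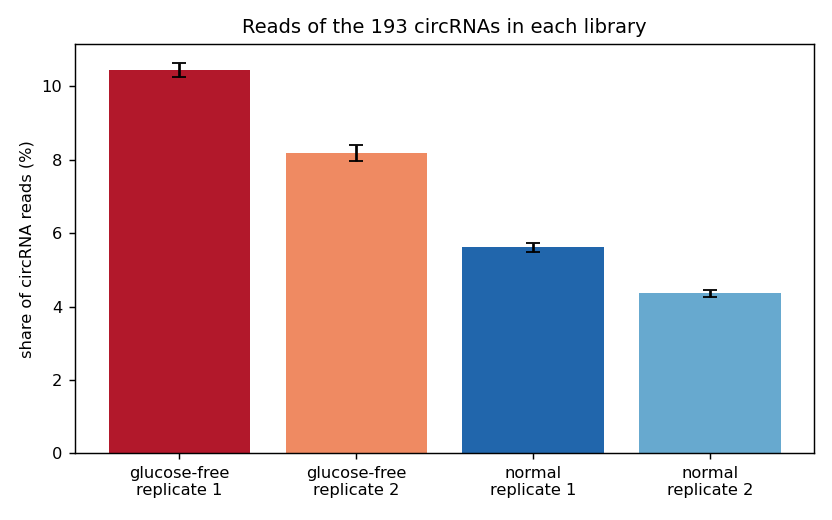
Share of all circRNA reads (%) held by the 193 members in each library, with 95% exact binomial intervals as error bars. The glucose-free libraries stand at 10.4% and 8.19% and the normal libraries at 5.61% and 4.36%.

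A few members carried much of this signal, and most members were shallowly covered. The 5 most abundant held 33.5% and 29.4% of the members' reads in glucose-free replicates 1 and 2, and 30.2% and 35.6% in normal replicates 1 and 2. Reads of the median member numbered 24 and 13 in glucose-free replicates 1 and 2, and 19 and 16 in normal replicates 1 and 2. In 64 members at least 1 library had fewer than 10 reads, and 15 members had at least 50 reads in all 4. The median level was 234 and 221 CPM in glucose-free replicates 1 and 2, against 143 and 96.3 CPM in normal replicates 1 and 2.

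The most abundant member, hsa_circ_0060927, was the second most abundant of all circBase circRNAs that met the conditions on reads and mean level. Its level was 14665 and 9426 CPM in glucose-free replicates 1 and 2, against 7011 and 7105 CPM in normal replicates 1 and 2. The normal libraries lay close together, and the glucose-free libraries lay apart, with replicate 1 the higher. The ratio of group means was 1.71. The next, hsa_circ_0001746, stood at 7274 and 4287 CPM in glucose-free replicates 1 and 2, against 2668 and 3450 CPM in normal replicates 1 and 2, a ratio of 1.89. The same order of the glucose-free libraries was seen in hsa_circ_0008234, at 4345 and 2688 CPM without glucose against 2036 and 2102 CPM in normal cells. For these 3 the normal libraries were within 1.3 times of each other, or closer, and glucose-free replicate 1 was the highest of the 4 libraries.

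In other abundant members the normal libraries were apart, and for hsa_circ_0000118 and hsa_circ_0000417 the glucose-free libraries were close. For hsa_circ_0000118 the levels were 4364 and 3862 CPM in glucose-free replicates 1 and 2, against 2224 and 1042 CPM in normal replicates 1 and 2. This circRNA had a ratio of group means of 2.52, and its lower glucose-free library was 1.74 times its higher normal library. The level of hsa_circ_0000417 was 4306 and 3794 CPM without glucose, against 3021 and 1843 CPM in normal cells, with a ratio of 1.67. In both, normal replicate 2 was the lowest of the 4 libraries. The same library was the lowest for hsa_circ_0001756, at 391 CPM, where normal replicate 1 had 872 CPM and the glucose-free libraries had 2099 and 1327 CPM. That member had the largest ratio among the 12 most abundant, 2.71.

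The remaining 6 of the 12 most abundant members had smaller or similar ratios. For hsa_circ_0084606 the level was 1865 and 1242 CPM without glucose, against 721 and 518 CPM in normal cells, a ratio of 2.51. For hsa_circ_0000117 it was 2968 and 2042 CPM, against 1322 and 897 CPM, a ratio of 2.26. Both had a lower glucose-free library more than 1.5 times the higher normal one. The ratio was 1.53 for hsa_circ_0008817, 1.63 for hsa_circ_0004029, 1.70 for hsa_circ_0001360 and 1.84 for hsa_circ_0008192. In the first 3 of these the lower glucose-free library exceeded the higher normal library by a factor of 1.18 to 1.21.

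**Figure D2:**
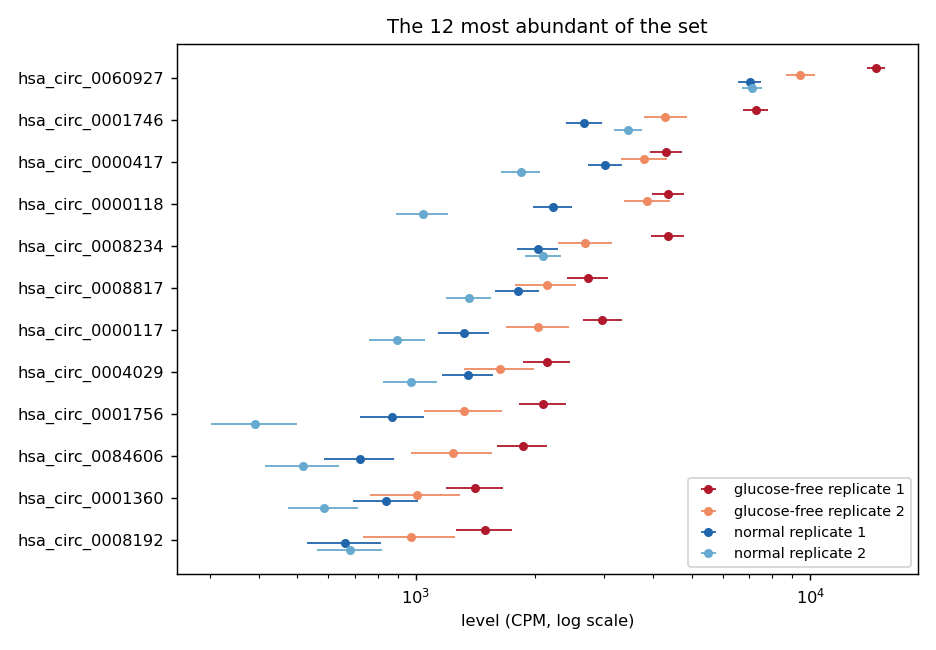
Level (CPM, log scale) of the 12 most abundant members in each library, with 95% exact Poisson intervals of the read counts as error bars. For hsa_circ_0000118 the glucose-free points at 4364 and 3862 CPM lie clear of the normal points, and for hsa_circ_0008817 the intervals of glucose-free replicate 2 and normal replicate 1 overlap.

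The counting intervals of the groups overlapped in most members. Exact 95% Poisson intervals of the reads were set against each other, asking whether the lowest bound of the glucose-free libraries exceeded the highest bound of the normal libraries. This held for 8 of the 193 members, and for 8 of all 1445 circBase circRNAs (0.554%), while 0 of the 1445 were apart in the opposite direction (0%). The rule used the same counts, so nothing is read from these shares. The 8 were hsa_circ_0060927, hsa_circ_0001746, hsa_circ_0000118, hsa_circ_0000117, hsa_circ_0001756, hsa_circ_0084606, hsa_circ_0005955 and hsa_circ_0003047. Of the 10 members with a mean of at least 1000 CPM, 6 were among them, and of the 115 members with a mean under 200 CPM, 0 were. With library sizes rescaled by TMM or RLE factors, which correct library totals for differences in makeup, fewer were apart: 1 with TMM or RLE factors of the whole table, and 4 with TMM factors of the tested circRNAs. Without normal replicate 1 there were 38, and without glucose-free replicate 2 there were 42. Leaving out a library can only keep or raise this number, so nothing is read from the rise. The share over the 1445 circBase circRNAs was not computed with rescaled sizes or with a library left out.

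**Figure D3:**
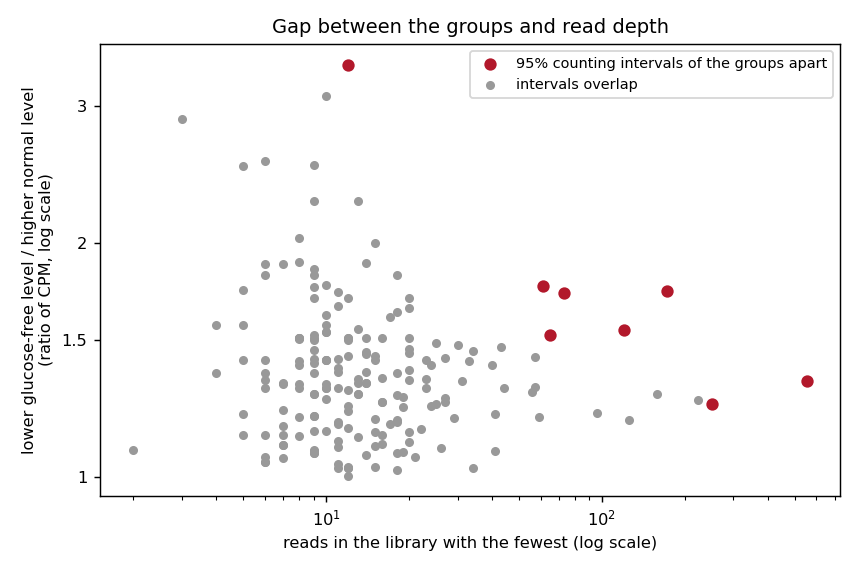
Each point is a member, placed by its reads in the library with the fewest (log scale) and by the lower glucose-free level over the higher normal level (log scale). The 8 members with 95% counting intervals apart (red) have at least 61 reads in each library, except hsa_circ_0003047 with 12.

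The gap between the groups was narrow in most members. The lower glucose-free level was a median of 1.33 times the higher normal level, with a range of 1.004 to 3.39. It was under 1.2 times in 56 members and at least 2 times in 9. The ratio of group means had a median of 1.81 and a range of 1.5004 to 5.53, and it was under 2 in 133 members, from 2 to 3 in 48 and at least 3 in 12. The median ratio over all 1445 circBase circRNAs was 1.07, and in 359 of these (24.8%) both glucose-free libraries lay above both normal libraries at any ratio.

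The widest gap belonged to hsa_circ_0003047, of moderate abundance. It had 381 and 306 CPM in glucose-free replicates 1 and 2, against 90.2 and 90.3 CPM in normal replicates 1 and 2, from 39, 18, 12 and 15 reads. Both pairs of replicates lay close together, and the lower glucose-free library was 3.39 times the higher normal one. The gap was next widest for hsa_circ_0056891, with 264 and 255 CPM without glucose against 82.7 and 60.2 CPM in normal cells. It rests on 27 and 15 reads without glucose and 11 and 10 in normal cells. The gap was 2.88 for hsa_circ_0016601, 2.55 for hsa_circ_0000120, 2.52 for hsa_circ_0014613 and 2.51 for hsa_circ_0075448, each with fewer than 10 reads in at least 1 library.

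The largest ratios of group means came from thinly read members, and in several glucose-free replicate 1 lay far above glucose-free replicate 2. The largest, 5.53 for hsa_circ_0075448, came from 371 and 136 CPM in glucose-free replicates 1 and 2, against 37.6 and 54.2 CPM in normal replicates 1 and 2. These were 38, 8, 5 and 9 reads. The ratio was 3.63 for hsa_circ_0004075, which had 351 CPM in glucose-free replicate 1 but 85.1 CPM in replicate 2, against 60.1 and 60.2 CPM in normal cells. Likewise hsa_circ_0001413 had 303 and 102 CPM without glucose, against 75.1 and 24.1 CPM in normal cells. For hsa_circ_0089392 the levels were 234 and 85.1 CPM without glucose, against 30.1 and 54.2 CPM in normal cells. In these 4 members glucose-free replicate 1 was more than 2.5 times glucose-free replicate 2.

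Some members had nearly equal levels in both glucose-free libraries. For hsa_circ_0005955 they were 1045 and 1038 CPM, against 564 and 590 CPM in normal replicates 1 and 2. The groups stood at 1041 ± 4.86 CPM without glucose and 577 ± 18.8 CPM in normal cells (SD, n = 2 each), a ratio of 1.81. The glucose-free libraries were also even for hsa_circ_0006886, at 908 and 953 CPM, and for hsa_circ_0001417, at 683 and 749 CPM. The normal libraries of hsa_circ_0006886 stood at 706 and 500 CPM, and those of hsa_circ_0001417 at 526 and 361 CPM.

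The order of the replicates within each group was uneven over the members. The rule chose the members on these same values, so nothing is read from this order. Normal replicate 1 lay above normal replicate 2 in 152 of the 193 members (78.8%), against 54.1% of the 1445 circBase circRNAs, and glucose-free replicate 1 lay above replicate 2 in 122 (63.2%), against 45.9%. In 94 members glucose-free replicate 2 was the lower of its group and normal replicate 1 the higher of its group. The same held in 306 of the 1445 circBase circRNAs. In these members the pair nearest each other across the groups was thus the libraries whose counts agree within sampling noise. Taken per circRNA, the level in glucose-free replicate 1 was a median of 1.67 times that in normal replicate 1 and 2.20 times that in normal replicate 2. For glucose-free replicate 2 these medians were 1.51 and 2.12. Over the 1445 circBase circRNAs the same 4 medians were 1.02, 1.04, 1.07 and 1.11. In the 62 circRNAs picked by the mirrored rule as lower without glucose, normal replicate 1 lay above replicate 2 in 18 (29.0%) and glucose-free replicate 1 above replicate 2 in 26 (41.9%). The part of the agreement between those libraries in these orders was not tested.

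**Figure D4:**
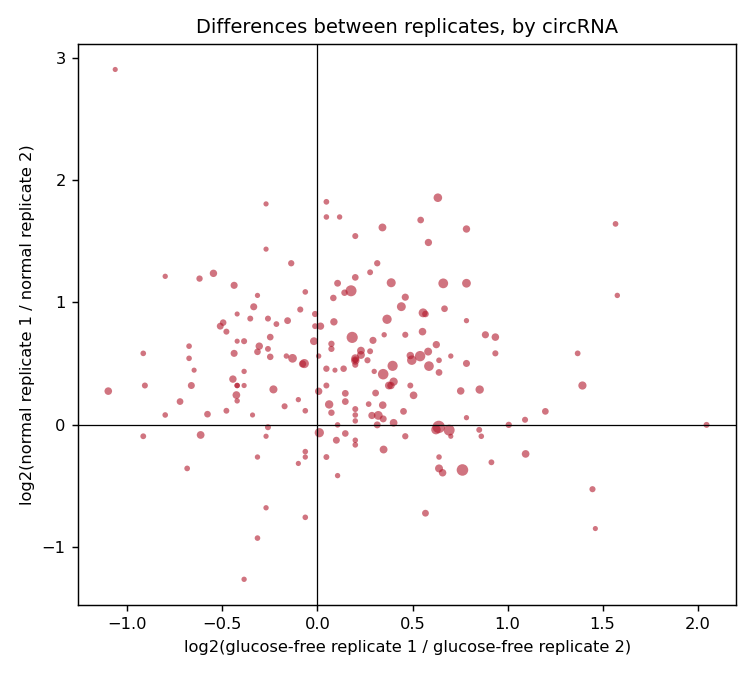
Each point is a member, placed by the log2 ratio of glucose-free replicate 1 to replicate 2 and by the log2 ratio of normal replicate 1 to replicate 2, with larger points for higher mean levels. Normal replicate 1 is the higher in 152 members (above the horizontal line), and glucose-free replicate 1 in 122 (right of the vertical line).

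Members with neighbouring identifiers occurred in 5 runs, which held 14 members. This was looked at after the values were seen. The longest run was hsa_circ_0000116 to hsa_circ_0000120, all 5 of them members. The ratios of group means in the run were 1.92, 2.26, 2.52, 2.89 and 3.62 in order of the identifier. For hsa_circ_0000116 the levels were 1250 and 970 CPM in glucose-free replicates 1 and 2, against 744 and 409 CPM in normal replicates 1 and 2. For hsa_circ_0000119 they were 976 and 630 CPM without glucose, against 436 and 120.4 CPM in normal cells. In all 5, the libraries ran in the same order, with glucose-free replicate 1 the highest and normal replicate 2 the lowest. A further run of 3 was hsa_circ_0087630, hsa_circ_0087631 and hsa_circ_0087632, with ratios of 1.83, 1.95 and 1.54. Of 176 pairs of consecutive identifiers among the 1445 circBase circRNAs, both were members in 9 and 1 was a member in 41. Whether neighbours share a host gene or back-splice reads is not given in the sources used here.

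Members were found at all levels of abundance. They were 10 of the 83 circBase circRNAs with a mean of at least 1000 CPM (12.05%), 12 of 135 from 500 to 1000 CPM (8.89%), 56 of 464 from 200 to 500 CPM (12.1%) and 115 of 763 from 100 to 200 CPM (15.1%). The mirrored rule, for lower levels without glucose, picked 1, 3, 20 and 38 in these classes, 62 in all (4.29%). Among the 193 circRNAs without a circBase identifier that met the conditions on reads and mean level, 39 were higher by the same rule (20.2%) and 8 lower (4.15%).

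The number of members, and the balance of higher against lower circRNAs, depended on how the libraries were scaled. On the deposited CPM, and among circRNAs with reads in all 4 libraries only, 193 were higher and 62 lower, so that 75.7% of both were higher. On TMM factors taken over the whole table, 88 were higher and 175 lower (33.5% higher), and with RLE factors 110 and 138 (44.4% higher). With TMM factors of the 2803 circRNAs that were tested, 131 were higher and 109 lower (54.6% higher). In the order given, these factors lowered the difference of mean log2 levels, glucose-free minus normal, by 0.23, 0.16 and 0.10. The median ratio of group means over the 1445 circBase circRNAs was then 0.908, 0.953 and 0.990, against 1.07 on the deposited CPM. All 193 members still had a higher glucose-free mean under each of these scalings, with a median ratio of 1.54, 1.62 and 1.69 and a lowest ratio of 1.28, 1.35 and 1.40. Both glucose-free libraries remained above both normal libraries in 145, 166 and 175 of the members. The members were chosen for this order and this ratio on the deposited CPM, so nothing is read from these numbers. The share of all circBase circRNAs with this order was not computed under the scalings.

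**Figure D5:**
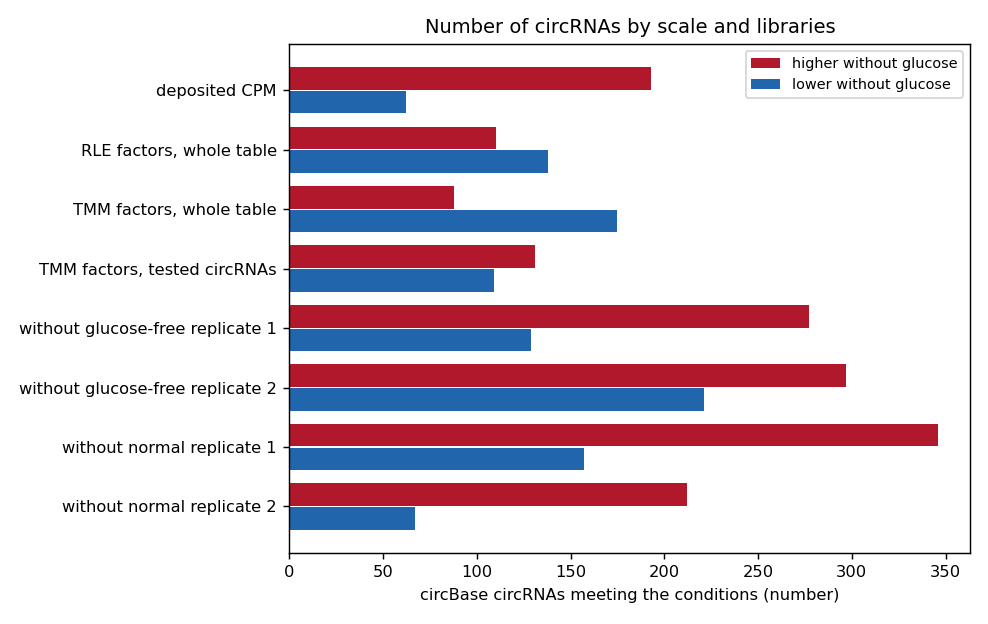
Number of circBase circRNAs that met the conditions for higher levels (red) and the mirrored conditions for lower levels (blue) without glucose, on the deposited CPM, under 3 scalings and with each library left out. On deposited CPM the numbers are 193 and 62, and with TMM factors of the whole table they are 88 and 175.

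When 1 library was left out, no member could fail the condition of no overlap, since it held in all 4 libraries. Only the mean or the ratio could be missed, so the numbers below are no independent check of the set. Without glucose-free replicate 1, 124 of the 193 members met all conditions in the other 3 libraries, and without glucose-free replicate 2, 143 did. Without normal replicate 1 it was 185, and without normal replicate 2 it was 119. With fewer libraries the condition of no overlap is easier to meet, and circRNAs outside the set also qualified. In these 4 cases 277, 297, 346 and 212 circBase circRNAs met the conditions. They were 17.5%, 20.1%, 22.4% and 13.7% of those that met the conditions on reads and mean level. The mirrored rule picked 129, 221, 157 and 67. The members that met the conditions for higher levels in all 4 cases numbered 58, and 47 also met them under the 3 scalings. No share over all circBase circRNAs was computed for these numbers. These 47 included hsa_circ_0000118, hsa_circ_0000117, hsa_circ_0001756, hsa_circ_0084606, hsa_circ_0005955, hsa_circ_0003047 and hsa_circ_0056891. They did not include hsa_circ_0060927 or hsa_circ_0001746, which missed the ratio of 1.5 without glucose-free replicate 1. Both also failed the conditions with TMM factors of the whole table, and hsa_circ_0001746 failed them with RLE factors as well.

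No member passed the test of the whole table. With edgeR's quasi-likelihood test over the 2803 circRNAs that passed the filter on low counts, 0 of the 193 members and 0 circRNAs in all (0%) were higher at an adjusted p of 0.05, and each member had an adjusted p of 0.999. At an unadjusted p under 0.05 there were 17 members, of 29 circRNAs higher in all (1.03%). All 193 members had been tested. Since the rule used this contrast, nothing is read from these shares. DESeq2 called 0 members and 0 circRNAs higher in all (0%), and limma on log2(CPM + 1) or log2(CPM + 0.1) called 0 members and 3 higher in all (0.107%). Without glucose-free replicate 2 the test of the whole table called 0 members and 1 circRNA higher in all (0.0254%). The fitted log2 fold change of the members had a median of 0.75 and ran from 0.48 to 2.38, beside a median of -0.03 over all 2803 circRNAs tested. It was 1.82 with a standard error of 0.36 for hsa_circ_0003047, 1.249 with 0.40 for hsa_circ_0000118, and 0.68 with 0.30 for hsa_circ_0060927. For hsa_circ_0060927 it was 0.20 without glucose-free replicate 1 and 0.94 without glucose-free replicate 2. For hsa_circ_0000118 it was 0.77 without normal replicate 2 and 1.80 without normal replicate 1, and for hsa_circ_0003047 it stayed between 1.54 and 1.95 with any 1 library left out.

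Calls appeared in some narrower fits. Among the 2211 tested circRNAs that had reads in every library, edgeR called 0 members, with a smallest adjusted p of 0.0890, and 11 members when the replicate number was added as a block (13 circRNAs higher in all, 0.588%). Only 1 residual degree of freedom is left in that fit, and the labels give the replicate numbers no shared culture or day. Among circRNAs with reads in all remaining libraries, 30 members were called without glucose-free replicate 2 (42 circRNAs higher in all, 1.31%) and 6 without normal replicate 1 (11 in all, 0.431%). Without glucose-free replicate 1, and without normal replicate 2, 0 members were called. With 1 library left in a group, the fit lends it the spread of the other group. The members called both with the block and in both of those left-out fits were hsa_circ_0000118, hsa_circ_0001756, hsa_circ_0000826 and hsa_circ_0000119. Their ratios of group means were 2.52, 2.71, 2.34 and 2.89. In edgeR's test of the whole table each of them had an adjusted p of 0.999. The list joins only fits that gave calls, on the contrast that the rule used, so nothing is read from it. The share of all circRNAs called in all of these fits was not computed.

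The thresholds of the rule cut through a continuous range of values. Just inside the mean of 100 CPM were hsa_circ_0006341 at 100.2 CPM and hsa_circ_0067960 at 100.6 CPM, and just outside it were hsa_circ_0002506 at 99.98 CPM and hsa_circ_0034065 at 99.03 CPM. For the ratio of 1.5, hsa_circ_0002965 at 1.5004 and hsa_circ_0003489 at 1.5039 were inside, and hsa_circ_0006670 at 1.4947 and hsa_circ_0005236 at 1.4938 were outside. For the gap, hsa_circ_0091570 at 1.004 and hsa_circ_0002622 at 1.021 were inside, and hsa_circ_0043230 at 0.9906 and hsa_circ_0009362 at 0.9900 were outside. The numbers that missed only the mean, only the ratio or only the gap were 306, 166 and 37.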

How the data were processed

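CircRNA libraries of HepG2 cells (2 glucose-free, 2 normal) were analysed. Per the labels' protocols, TRIzol was used for extraction, Ribo-Zero against ribosomal RNA and RNase R against linear RNA, before a stranded total RNA kit. Per the submitters' processing notes, the build is hg19 and DESeq2 was used, with no role stated. Not given in the sources used here: aligner, circRNA caller, filters. The authors deposited raw read counts and, under a header that says tpm, values that equal the count divided by the column total times 1000000 (within 4.22e-06), which are CPM. The smallest count above 0 is 2 in each library.

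The members were found by applying the stated conditions to the deposited CPM. The members, lists and tests were chosen with earlier results of these data known. Counts of the whole table were tested with edgeR 4.0.16 (R 4.3.3; TMM, filterByExpr, quasi-likelihood, Benjamini-Hochberg over 2803 circRNAs; library sizes after the filter of 47232 to 123886 reads). Printed standard errors are the absolute log2 fold change over the square root of the F statistic. Alternatives were DESeq2 1.42.0, limma 3.58.1 on log2(CPM + 1) and log2(CPM + 0.1), other scalings, filters and thresholds, the replicate number as a block and each library left out. The test was checked on simulated data. Named members were the 12 with the highest mean, the 8 with the largest ratio, the 6 with the widest gap, the 4 with the most even glucose-free libraries at a mean of at least 500 CPM, and 2 on each side of each threshold. Read counts limit precision, and 95% exact intervals cover counting error only.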

Additional observations from a re-analysis of the deposited data

How the results depend on the processing

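In the test of the whole table, 0 members also passed with RLE factors, library totals, column totals, no filter, the filter of 10 reads, the robust dispersion, DESeq2, limma with either pseudocount, the replicate block, and each library left out. With circRNAs at 0 in any library left out, 0 passed, and 11 with the replicate block, and 0 to 30 with a library left out, with 6 without normal replicate 1 and 30 without glucose-free replicate 2. Same-numbered libraries deviated with a correlation of -0.192, and a crossed pairing, added after seeing the data, gave 0 calls in the whole table and 0 with those circRNAs left out. The median log2 fold change of the members stayed between 0.55 and 0.89 and above 0 in every fit.

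The number meeting the conditions was 297 where the glucose-free mean had to be 25% higher, 60 at a ratio of 2, 376 at a mean of 50 CPM and 78 at a mean of 200 CPM. It was 88 with TMM factors, 110 with RLE factors and 131 with the added TMM factors of the tested circRNAs, and 212 to 346 with a library left out. For the mirrored rule, added after seeing the data, the numbers were 137, 15, 151, 24, 175, 138 and 109 in the same order, and 67 to 221 with a library left out. The number of members with counting intervals apart was 2 at 99% intervals. It was 1 with TMM factors, 1 with RLE factors and 4 with TMM factors of the tested circRNAs. With a library left out it was 9 to 42, a setting in which it cannot fall. The members' share of reads, glucose-free minus normal, was 2.99 percentage points without the 5 most abundant members and 3.20 to 5.44 with a library left out. The causes were not tested. For the 30 named members, no fit turned the sign, and 23 fitted values over 13 members passed the threshold, all with circRNAs at 0 in any library left out and either the replicate block or 1 library fewer. The named members were picked from a set chosen on the same contrast, so nothing is read from that number. Over all circRNAs, the fit with the replicate block called 13 of 2211 higher (0.588%), and the shares of the other fits are given above. Depth limits the set, since 64 members had under 10 reads in a library.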
